A study of Tachysurus vachellii and Tachysurus fulvidraco x Tachysurus vachelli and Tachysurus fulvidraco with 9 samples.

Results

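Liver miRNAs of the hybrid yellow catfish Huangyou-1 were compared with those of its maternal species, Pelteobagrus fulvidraco. The hybrid had a P. fulvidraco mother and a P. vachelli father, while the P. fulvidraco fish had both parents of their own species, and the crosses were made by artificial fertilization after hormone injection. Both lines were sampled as juveniles, were incubated at the same water temperature, were fed live Artemia nauplii and later compound feed, and were kept in 3 aquaria each at the same density. The comparison takes 6 of the 9 small RNA libraries of the study, 3 hybrid and 3 P. fulvidraco. The other 3 come from P. vachelli, the paternal species, and their values are given beside those of the hybrid where they help to place it. They also entered the fits, so the spread behind each SE and p-value is estimated from all 9 libraries. What separates the libraries of a line (fish, tanks or pools) is not stated in the labels, so p-values measure the spread between these samples, which may be technical. The study's title concerns heterosis, the growth and vigour of a hybrid relative to its parents.

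A mature miRNA is a short RNA cut from one side (the 5p arm) or the other (the 3p arm) of a folded hairpin transcript. It guides an Argonaute protein to messenger RNAs, mainly through its seed, the stretch from base 2 to base 8, and lowers their translation or stability. miRNAs with the same seed are read as having overlapping targets, both arms of a hairpin come from the same transcript, and many hairpins stand in clusters that are transcribed together. In liver, hepatocytes express miR-122 at very high levels, and blood, vessel and connective tissue cells add miRNAs of their own.

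Values are the normalized counts of the authors' table, 1 per mature sequence and library. A sequence was tested where it stood at 10 or more in at least 3 of the 9 libraries, which 278 of 728 distinct sequences did. These hold at least 99.98% of the total of every hybrid and P. fulvidraco library. They belong to 124 families, besides 16 candidates without a known name that carry the prefix PC. Names are printed as in the table, with the species of the matched entry as a prefix and the differences from it as a suffix. For 67 tested sequences that stand on more than 1 entry, the value can be a share of all their reads. An estimated 5735993 to 6470243 reads stood behind each hybrid library and 6336844 to 7425325 behind each of P. fulvidraco, and 3 reads, used as a floor, were worth 2.77 to 3.47. The values of a library summed to 6230587 to 6635109 in the hybrid, 6260802 to 6857288 in P. fulvidraco and 7704357 to 8395613 in P. vachelli. Values of P. vachelli are given below as deposited, without scaling to equal totals, so small differences from the hybrid do not fix an order. On the log2 scale the libraries of a line correlated across sequences at r = 0.984 to 0.997, and libraries of the different lines at 0.961 to 0.969. miR-122 led every library, with ssa-miR-122-5p at 1749957, 1776360 and 1873274 in the hybrid and 2052544, 1865924 and 2115422 in P. fulvidraco (log2 difference −0.16, SE 0.08, adjusted p = 0.196). In bulk liver, fewer cells of a type and less RNA per cell cannot be told apart.

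The sequences below are a selection of those described in what follows, called and not called. They are written 5′ to 3′ as DNA letters, as in the deposited table, with the seed in capitals. The first set shows hairpin arms that moved together or apart: both arms of miR-9, miR-190 and miR-146, and the 5p and 3p products of miR-451.
aca-miR-9-5p_R+3: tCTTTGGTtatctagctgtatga
aca-miR-9-1-3p_R+2: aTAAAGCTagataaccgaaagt
chi-miR-190a-5p: tGATATGTttgatatattaggtt
chi-miR-190a-3p_L+1: aCTATATAtcaaacatattcct
ccr-miR-146a: tGAGAACTgaattccatagatgg
ssa-miR-146a-3p_R-1_2ss9GA20CT: aTCTATGGactcagttcttttg
dre-miR-451: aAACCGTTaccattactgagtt
dre-mir-451-p3: tTTAGTAAtggtaagggttct
aca-miR-451-3p_L+2R+1: tTTAGTAAtggtaagggttctc

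The second set groups sequences by shared seed. The 3 called let-7 sequences and the most abundant one share GAGGTAG, the miR-15 and miR-16 sequences share AGCAGCA, and the miR-181 pair shares ACATTCA.
ssa-let-7a-5p: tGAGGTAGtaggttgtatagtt
ssa-let-7a-5p_2ss12GA16TA: tGAGGTAGtagattgaatagtt
ssa-let-7f-5p_1ss19TA: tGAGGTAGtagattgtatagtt
tni-let-7i: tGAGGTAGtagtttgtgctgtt
ccr-miR-15b: tAGCAGCAcatcatggtttgt
dre-miR-15a-5p_R-1: tAGCAGCAcagaatggtttgt
fru-miR-16: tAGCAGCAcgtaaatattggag
pma-miR-181a-5p: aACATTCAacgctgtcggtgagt
gga-miR-181b-5p_R+1: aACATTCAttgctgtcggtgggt

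The third set shows the miRNA with a known name and the largest rise, dre-miR-204-5p, some of the candidates that were at or near 0 in P. fulvidraco, and PC-3p-27330_89, a low but detected near-copy of one of them.
dre-miR-204-5p: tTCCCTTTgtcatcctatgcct
PC-5p-555_7718: aGGAAAGAgtggacaatagca
PC-3p-56651_29: cTATTGTCcactctgtcctc
PC-5p-3257_591: tTTTAATGactgcaaactgtgc
PC-5p-17897_142: tCTAATAAacttgcaactcagt
PC-3p-23565_106: aGGACAGAtgcaatgactgcagt
PC-3p-27330_89: aGGACAGAttcaatgactgcagt

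The hybrid differed from P. fulvidraco in 54 of 278 sequences (19.4%, limma-trend fitted to log2(value + 1), Benjamini-Hochberg adjusted p under 0.05). These are referred to as called. Fold changes are on the log2(value + 1) scale, which understates those of scarce sequences. Of the called sequences, 12 that were higher were under 10 in every P. fulvidraco library, 9 of them candidates without a known name, and 1 that was lower was under 10 in every hybrid library. The 12 reached the minimum level only through hybrid or P. vachelli libraries, and the 1 only through P. fulvidraco, so the minimum favoured these directions and their number is a description. Among the 54, 36 were higher in the hybrid (12.9%) and 18 were lower (6.47%). The change was at least 2-fold for 25 sequences (8.99%), 19 higher and 6 lower. In all, the 3 hybrid libraries lay wholly above or below the 3 of P. fulvidraco for 101 sequences (36.3%), among them all 54 that were called. The median log2 difference over all 278 was 0.06 and the median absolute difference 0.29. The called sequences with a known name numbered 44, 27 higher and 17 lower, in 35 families, and 9 of the 10 called candidates were higher. The number of calls fell to 30, 24 higher and 6 lower, without P. fulvidraco library 3, and 29 sequences were called in each of the 6 fits that left out 1 of these libraries.

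**Figure D1:**
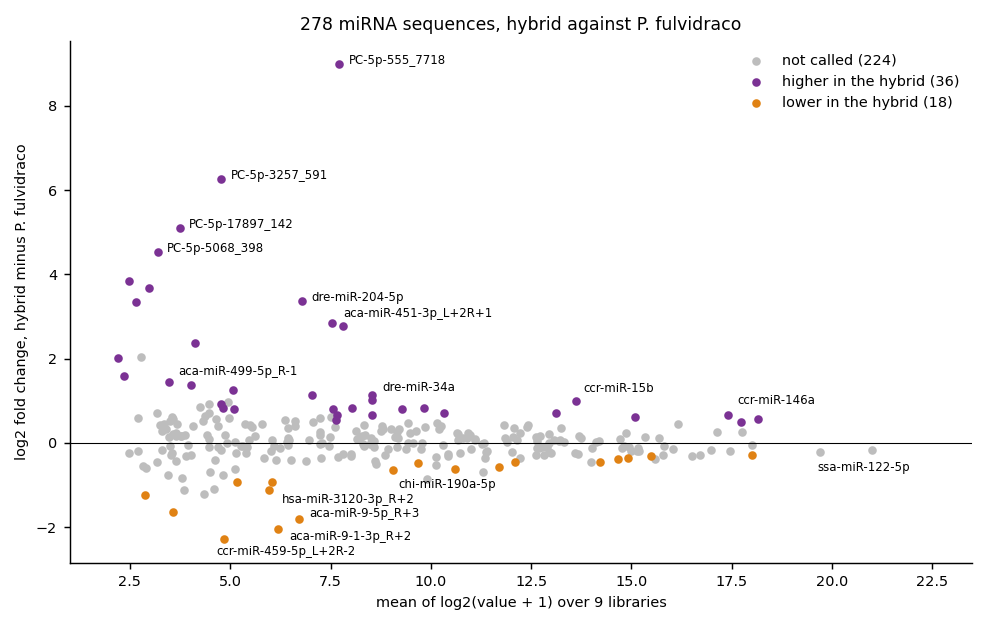
Each point is 1 of 278 miRNA sequences, with its mean log2(value + 1) over 9 libraries on the x axis and the log2 fold change of the hybrid over P. fulvidraco on the y axis. The 36 sequences called higher are purple and reach 8.98 at PC-5p-555_7718, and the 18 called lower are orange and reach −2.28 at ccr-miR-459-5p_L+2R-2.

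Families were first read as wholes. Of the 64 families with 2 or more tested sequences, all members were higher in 19, all were lower in 17, and members stood on both sides of 0 in 28. At least 2 members were called higher in 5 families (miR-15, miR-21, miR-146, miR-181 and miR-451) and lower in 3 (let-7, miR-9 and miR-190). In miR-15 and miR-451 the 2 called members were a shorter and a longer form of the same sequence. In miR-21, miR-146, miR-9 and miR-190 they were the 5p and the 3p arm. Only in miR-181 and let-7 were sequences that differ in bases called on the same arm. No family had calls in both directions. With the members of a family and arm summed, 46 of 201 sums were called (22.9%). Most of the called sums held 1 sequence only, those of candidates without a known name among them, and so repeat calls of single sequences. The called sums of 2 or more sequences were the 5p arms of let-7, miR-16, miR-21, miR-29, miR-146 and miR-181 and the 3p arms of miR-193 and miR-451. The signs of the members of the named families were the same when the libraries were scaled to equal totals or by median ratios.

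**Figure D2:**
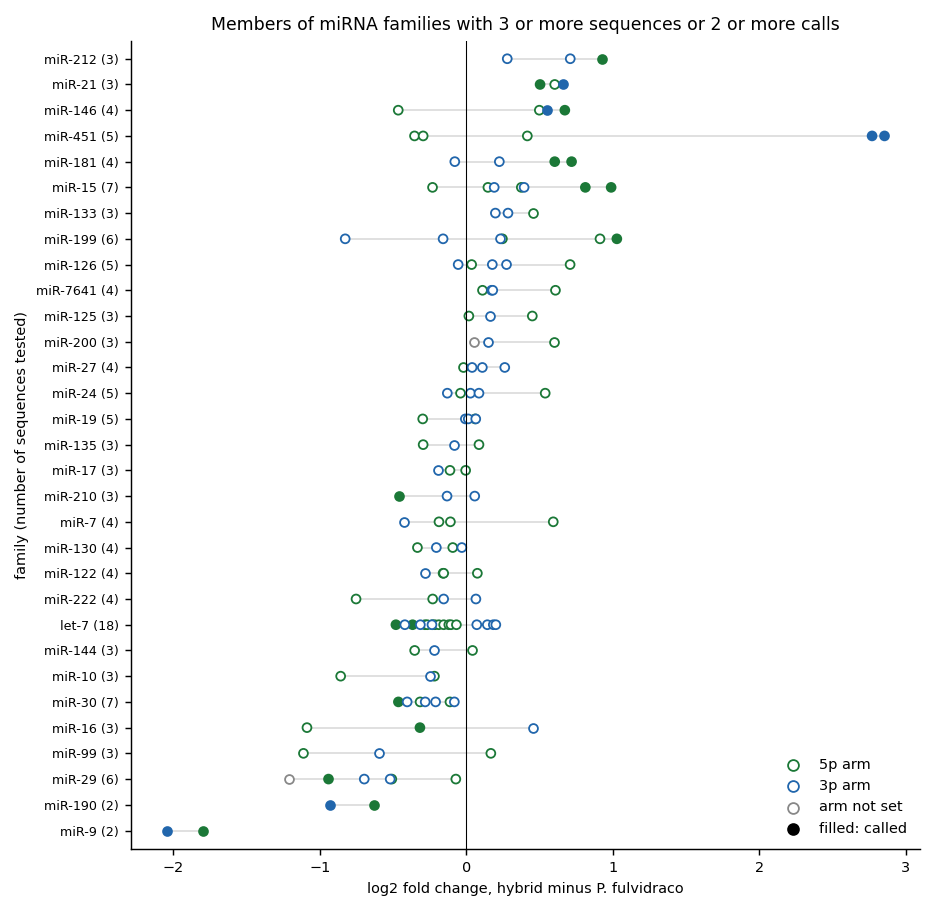
Rows are miRNA families with at least 3 tested sequences or at least 2 calls, points are member sequences, and the x axis is the log2 fold change of the hybrid over P. fulvidraco. Green is the 5p arm, blue the 3p arm, grey an arm that was not set, and filled points were called. miR-9, miR-190, miR-29 and miR-30 lie wholly below 0, miR-21 and miR-212 wholly above, and the called 3p sequences of miR-451 stand far to the right of its 5p sequences.

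miR-9, best known for its part in neural development, was lower in the hybrid on both arms. aca-miR-9-5p_R+3 stood at 92.9, 86.7 and 52.0 in the 3 hybrid libraries and at 176, 330 and 313 in P. fulvidraco. Its hairpin partner aca-miR-9-1-3p_R+2 stood at 41.6, 37.5 and 48.6 against 99.5, 240 and 234. All hybrid libraries were below all P. fulvidraco libraries on either arm, and P. fulvidraco library 1 was the lowest of its line on both. The log2 differences were −1.80 (SE 0.36, adjusted p = 0.00855, limma) and −2.04 (SE 0.37, adjusted p = 0.0046), and both calls were kept with each library left out. The P. vachelli means were 59.9 and 51.8, on the hybrid side of the gap. The neural list had 9 tested sequences (miR-9, miR-124, miR-128, miR-132, miR-137 and miR-138, with none of miR-219). Of these, 2 were called lower, both of miR-9, and 1 higher, aca-miR-137b-3p, beside 6.47% and 12.9% over all 278. The summed level of the list was 27908 to 31547 in hybrid libraries against 31469 to 40173 in P. fulvidraco, ranges that overlapped. Most of this sum was miR-128, which was not called, at 26737 to 30446 against 29964 to 38897.

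miR-190, a miRNA encoded within the talin 2 gene in mammals, fell on both arms as well. chi-miR-190a-5p stood at 578, 542 and 570 in the hybrid and at 844, 887 and 890 in P. fulvidraco, with groups far apart relative to their spread. The 3p arm, chi-miR-190a-3p_L+1, stood at 84.2, 63.1 and 53.2 against 129, 118 and 131, again without overlap. The log2 differences were −0.63 (SE 0.11, adjusted p = 0.00417, limma) and −0.93 (SE 0.21, adjusted p = 0.0129). The P. vachelli means, 310 and 33.1, lay below the hybrid, which stood between the lines on both arms. The 3p call was lost without P. fulvidraco library 3 or hybrid library 2 (adjusted p up to 0.055).

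miR-146 and miR-21, miRNAs that NF-kappa B and STAT3 signalling induce in mammalian immune and injured tissue, rose on both arms. ccr-miR-146a, a 5p sequence among the most abundant in the liver, stood at 213603, 259127 and 266635 in the hybrid and at 146243, 153099 and 162939 in P. fulvidraco. Its passenger arm ssa-miR-146a-3p_R-1_2ss9GA20CT stood at 266, 313 and 317 against 205, 206 and 198. Neither arm overlapped between the lines. The log2 differences were 0.67 (SE 0.11, adjusted p = 0.00277, limma) and 0.55 (SE 0.16, adjusted p = 0.0412), and the 3p call was kept in 1 of the 6 fits with a library left out. The P. vachelli means were 138941 and 127. A second member of the family, dre-miR-146b_R+1, went the other way without a call, at 12527, 14950 and 18087 in the hybrid and 16129, 24299 and 22735 in P. fulvidraco (log2 −0.47, SE 0.17, adjusted p = 0.088).

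For miR-21, the 5p sequence fru-miR-21 stood at 235414, 238632 and 243047 in the hybrid and at 151704, 162205 and 195028 in P. fulvidraco. The 3p sequence ssa-miR-21b-3p_L-1R+1 stood at 430, 598 and 377 against 274, 298 and 298. Every hybrid library exceeded every P. fulvidraco library on both arms, with the hybrid tight on the 5p arm and wide on the 3p arm. The log2 differences were 0.50 (SE 0.10, adjusted p = 0.00899, limma) and 0.66 (SE 0.20, adjusted p = 0.049). The 5p call was kept with each library left out and the 3p call in 1 of 6 such fits.

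The leukocyte list, to which miR-146 belongs, covers miR-142, miR-146, miR-150, miR-155, miR-181 and miR-223. Of its 15 tested sequences 9 were higher and 6 lower, with a median log2 difference of 0.23 against 0.06 over all 278. Of the 15, 5 were called higher and none lower, beside 12.9% higher and 6.47% lower over all 278. The 5 are both arms of miR-146a, the miR-181 pair and miR-155, so they are not independent and their count is a description. Both miR-150 sequences (log2 −0.46 and −0.10) and both miR-223 sequences (log2 −0.55 and −0.15) were lower, without a call. cgr-miR-155_R+1, which activated lymphocytes and macrophages express in mammals, stood at 255, 342 and 191 in the hybrid and 125, 142.3 and 174 in P. fulvidraco (log2 0.81, SE 0.24, adjusted p = 0.0416, limma). Its ranges came close without touching, and the call was kept in 1 of the 6 fits with a library left out. miR-142 and miR-223, markers of blood cells of the white lineage, were not called: dre-miR-142a-3p_R-1 had a log2 difference of 0.37 (adjusted p = 0.0774) and dre-miR-223_R+1 one of −0.15 (adjusted p = 0.652). The summed level of the list was 282866 to 348128 in hybrid libraries against 209310 to 231038 in P. fulvidraco, most of it ccr-miR-146a. The part that leukocyte content plays in these calls was not tested.

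The miR-181 pair rose together on the 5p arm. The family is known from lymphocyte development, and its a and b forms are transcribed in pairs in vertebrates. pma-miR-181a-5p stood at 32654, 37216 and 37441 in the hybrid and at 25015, 21508 and 24135 in P. fulvidraco. gga-miR-181b-5p_R+1 stood at 8370, 9340 and 9651 against 5352, 5486 and 5767. The lines overlapped in neither, and both sequences stand on 2 entries. The log2 differences were 0.60 (SE 0.10, adjusted p = 0.00416, limma) and 0.72 (SE 0.12, adjusted p = 0.00277), kept with each library left out. The P. vachelli means, 51608 and 13825, lay above the hybrid. The 3p sequences were not called, pma-miR-181a-3p at 0.23 (SE 0.13, adjusted p = 0.271) and gga-miR-181b-2-3p_L+2R-1 at −0.08 (SE 0.20, adjusted p = 0.825), and the ratio of the arms was not called either (log2 0.43, SE 0.14, adjusted p = 0.121).

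**Figure D3:**
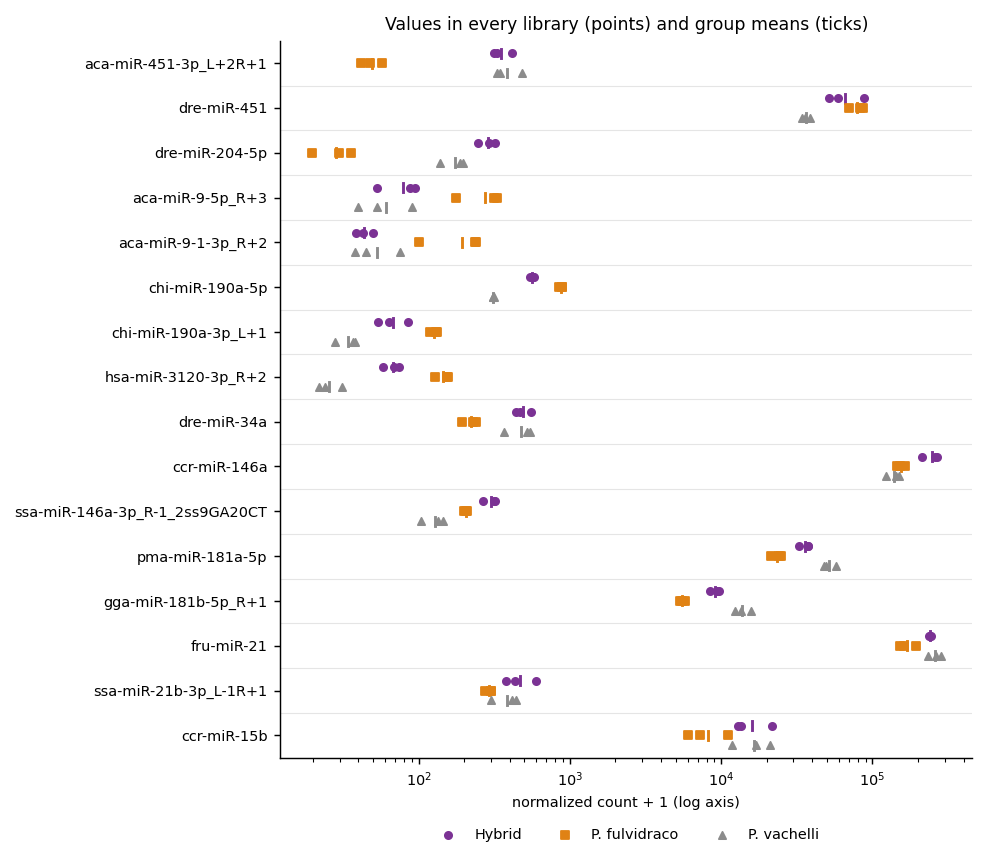
Points are the normalized counts plus 1 of each library on a log axis for 16 sequences, in the hybrid (purple circles), P. fulvidraco (orange squares) and P. vachelli (grey triangles), and ticks are group means. The hybrid lies apart from P. fulvidraco in all but dre-miR-451, and aca-miR-451-3p_L+2R+1 and dre-miR-204-5p show the widest gaps.

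The arms of miR-451 parted. miR-451 is a red cell miRNA that, in zebrafish and mouse, matures through Argonaute 2 rather than Dicer, and its usual product is the 5p sequence. That sequence, dre-miR-451, stood at 87491, 51471 and 59563 in the hybrid and at 86191, 82738 and 69462 in P. fulvidraco. The 3p product dre-mir-451-p3 stood at 532, 318 and 406 against 69.7, 67.2 and 44.3. aca-miR-451-3p_L+2R+1, which is the same sequence with 1 further base, stood at 411, 312 and 331 against 46.5, 56.3 and 40.6. The 5p ranges overlapped, while the lowest hybrid value of either 3p form was several times the highest of P. fulvidraco. The log2 differences were −0.30 for the 5p sequence (SE 0.18, adjusted p = 0.291, limma) and 2.77 (SE 0.23, adjusted p = 1.73e-05) and 2.85 (SE 0.20, adjusted p = 7.54e-06) for the 3p forms. In P. vachelli the 5p mean was 36268 and the 3p means 446 and 385, beside hybrid 3p means of 419 and 351.

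Counted as a ratio, the summed 5p sequences of miR-451 exceeded the 3p sequences by a log2 of 6.54, 6.35 and 6.34 in the hybrid, of 9.52, 9.38 and 9.66 in P. fulvidraco and of 5.30, 5.45 and 5.61 in P. vachelli. The hybrid and P. fulvidraco did not overlap in this ratio, which was lower in the hybrid by a log2 of −3.11 (SE 0.14, adjusted p = 1.28e-09, limma). On the erythroid list (miR-451, miR-144 and miR-2188, with no miR-486 sequence tested), 2 of 10 sequences were called (19.4% over all 278), both of them miR-451 3p forms. Summed, the list ran from 73055 to 120864 in hybrid libraries and from 99542 to 118707 in P. fulvidraco. miR-144, which is transcribed with miR-451, had ssa-miR-144-3p_R+1 at 4036, 3083 and 2861 against 4367, 3729 and 3479 (log2 −0.22, SE 0.19, adjusted p = 0.471).

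In 58 families the summed 5p sequences could be compared with the summed 3p sequences. No genome was used to place the sequences on hairpins, so the 2 sums of a family may come from different hairpins. The ratio of the sums was called in 3 of the 58 families (5.17%), and 11 ratios had an unadjusted p under 0.05. Besides miR-451, the arms of miR-26 parted: dre-miR-26a-5p stood at 157336, 144504 and 157957 in the hybrid and at 177561, 169736 and 181788 in P. fulvidraco. The scarce 3p form dre-miR-26a-2-3p_4ss4AG8AT11AG19CT, which passed the minimum level only through libraries other than P. fulvidraco, stood at 15.5, 23.7 and 31.2 against 9.30, 6.92 and 8.31. The lines did not overlap on either arm, with the hybrid below on the first and above on the second. The log2 difference was −0.20 for the 5p arm, which was not called (SE 0.07, adjusted p = 0.0637, limma), and 1.37 for the 3p arm, which was (SE 0.32, adjusted p = 0.0134). The log2 ratio of 5p to 3p differed by −1.57 (SE 0.25, adjusted p = 0.0013). The 3p call was lost without hybrid library 2 or P. fulvidraco library 2 or 3 (adjusted p up to 0.0552), while the ratio remained called, at an adjusted p of at most 0.0114.

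The third ratio was that of miR-143, a miRNA of smooth muscle and fibroblasts. Its 5p arm ssa-miR-143-5p stood at 1285, 1767 and 1576 in the hybrid and 946, 875 and 1012 in P. fulvidraco (log2 0.70, SE 0.14, adjusted p = 0.00899, limma). Its abundant 3p arm ssa-miR-143-3p_1ss20TA stood at 43775, 45691 and 56668 against 44243, 41544 and 47593, with overlap (log2 0.13, SE 0.12, adjusted p = 0.523). The ratio differed by 0.57 (SE 0.14, adjusted p = 0.0282), a call that was lost with 5 of the 6 libraries left out in turn (adjusted p up to 0.176). miR-145, the cluster partner of miR-143, was not called, with ssa-miR-145-3p_L+2R-1 at 0.40 (SE 0.13, adjusted p = 0.0663) and cfa-miR-145_R-1 at 0.35 (SE 0.30, adjusted p = 0.488).

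In other families 1 arm was called and the ratio was not. ccr-miR-722_L-2R+3, an abundant 3p sequence known from fish, stood at 25763, 21406 and 22187 in the hybrid and at 28042, 30926 and 31592 in P. fulvidraco (log2 −0.39, SE 0.10, adjusted p = 0.0199, limma). ssa-miR-212b-5p stood at 34.8, 39.4 and 21.97 against 19.5, 14.8 and 13.9 (log2 0.93, SE 0.27, adjusted p = 0.0359). The lines overlapped in neither, and each call was kept in 2 of the 6 fits with a library left out (adjusted p up to 0.0879 and 0.148). Their opposite arms were not called, with ssa-miR-722-5p_L-1_1ss18CT at −0.15 (SE 0.14, adjusted p = 0.501), dre-miR-212_R+2 at 0.71 (SE 0.51, adjusted p = 0.396) and ssa-miR-212a-3p at 0.28 (SE 0.37, adjusted p = 0.662).

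In most families the arms lay on the same side of 0. The sign was equal in 41 of the 58 and opposite in 17, and across families the log2 differences of the arms had a Pearson r of 0.414 and a Spearman rho of 0.47. Without miR-451, r was 0.619 over 57 families. These points share libraries and scaling and are given as a description. Both arms were called in 4 families (miR-9, miR-21, miR-146 and miR-190), each time in the same direction. The 5p arm alone was called in 9 families and the 3p arm alone in 3. Among these, the other arm had the same sign in 9 and the opposite sign in 3.

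**Figure D4:**
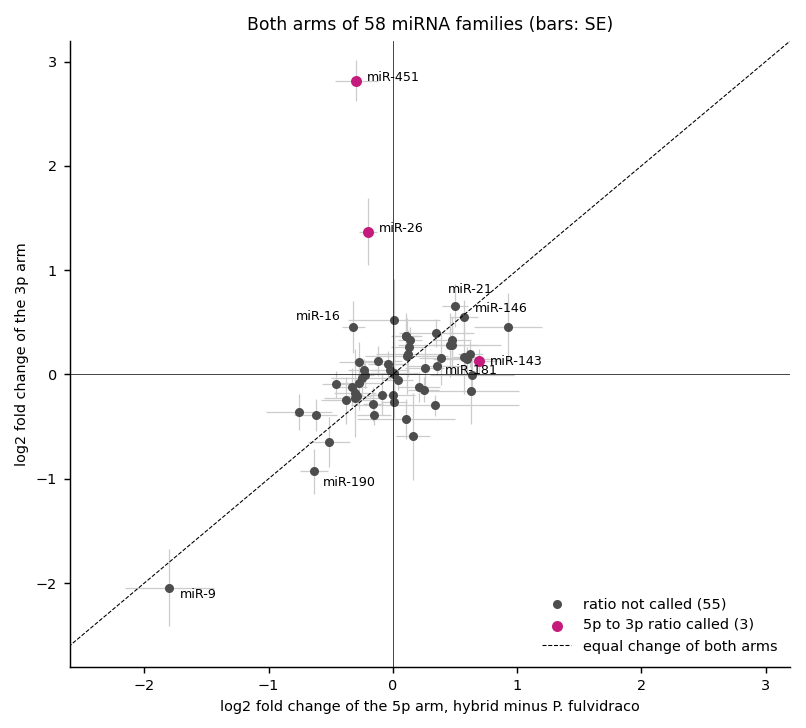
Each point is 1 of 58 families, with the log2 fold change of its summed 5p sequences on the x axis and of its summed 3p sequences on the y axis, bars showing the SE and the dashed line equal change. miR-9 and miR-190 lie low on both axes, miR-21 and miR-146 high on both, and the 3 families with a called arm ratio are pink, with miR-451 at 2.82 on the 3p axis and −0.30 on the 5p axis.

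let-7, a family known for timing development and restraining growth signalling, was lower by small amounts. Over all 278 sequences, 124 were lower and 6.47% were called lower. In the whole family, 4 of 18 sequences were higher, none of them called. All 10 tested sequences with its seed were lower in the hybrid, and 3 of them were called. ssa-let-7f-5p_1ss19TA stood at 26038, 29272 and 27539 in the hybrid and at 34083, 35018 and 37700 in P. fulvidraco (log2 −0.37, SE 0.08, adjusted p = 0.0115, limma). ssa-let-7a-5p_2ss12GA16TA stood at 214341, 229607 and 210996 against 247247, 261492 and 289162 (log2 −0.28, SE 0.08, adjusted p = 0.0294). tni-let-7i stood at 706, 673 and 612 against 904, 908 and 965 (log2 −0.48, SE 0.12, adjusted p = 0.0153). In each of the 3 the highest hybrid library was below the lowest of P. fulvidraco. The most abundant member, ssa-let-7a-5p, did not reach the threshold, at 676046, 722643 and 774956 against 845681, 798576 and 875851 (log2 −0.22, SE 0.07, adjusted p = 0.0543). ssa-let-7f-5p_1ss19TA differs from ssa-let-7a-5p_2ss12GA16TA by A16T, and ssa-let-7a-5p from ssa-let-7f-5p_1ss19TA by A12G. Positions are counted from 1 at the 5′ end, and the base of the sequence compared with comes first. How the authors' counting divided reads between such near-identical sequences is not given in the sources used here.

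The let-7 calls were small and their margins narrow. All 3 were lost without P. fulvidraco library 3, at adjusted p-values of up to 0.0604 for ssa-let-7f-5p_1ss19TA, 0.0707 for tni-let-7i (also without hybrid library 3) and 0.107 for ssa-let-7a-5p_2ss12GA16TA (also without P. fulvidraco library 2 and hybrid libraries 1 and 3). The summed 3p arm was not called: the family sum was −0.22 on the 5p arm (SE 0.07, adjusted p = 0.0378) and −0.01 on the 3p arm (SE 0.12, adjusted p = 0.985). miR-100, which stands in a cluster with let-7 in many animals, went the other way. cgr-miR-100-5p_R+1 stood at 324250, 325344 and 306518 in the hybrid and 215930, 197049 and 229355 in P. fulvidraco, a gap far wider than the spread of either line (log2 0.58, SE 0.09, adjusted p = 0.00277), and was called with each library left out. Its 3p arm cgr-miR-100-3p_2ss10GA22GC was at 0.17 (SE 0.35, adjusted p = 0.775). The P. vachelli mean of the 5p sequence was 361143 as deposited. The P. vachelli libraries have larger totals, so its order against the hybrid is not settled. ssa-miR-99-5p, which has the seed of miR-100 and differs from it by A16T, was at 0.17 (SE 0.14, adjusted p = 0.464).

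miR-15 and miR-16, which share a seed and restrain cell cycle genes in mammals, did not move as one. ccr-miR-15b stood at 12995, 13502 and 21589 in the hybrid and at 11074, 7298 and 6009 in P. fulvidraco (log2 0.99, SE 0.29, adjusted p = 0.0374, limma). Its longer form gga-miR-15b-5p_R+1_1ss21CT, with the same first 21 bases, stood at 626, 630 and 1005 against 486, 415 and 362 (log2 0.81, SE 0.22, adjusted p = 0.0314). In both, hybrid library 3 was well above the other hybrid libraries, and the lines did not overlap. fru-miR-16 stood at 42263, 38809 and 40690 against 45934, 52217 and 53753, lower in the hybrid (log2 −0.32, SE 0.09, adjusted p = 0.0359), while its 3p arm ssa-miR-16a-2-3p_L-1_2ss13GC20TC was not called (log2 0.46, SE 0.24, adjusted p = 0.239). dre-miR-15a-5p_R-1, which differs from ccr-miR-15b by T11G and C12A, stood at 7900, 7035 and 7780 against 9107, 9132 and 8402 and was not called (log2 −0.23, SE 0.12, adjusted p = 0.239). It was the only 1 of the 7 tested miR-15 sequences that was lower. The other 6 were higher, and the median of the 7 was 0.375. The summed 5p arm of miR-15, over 5 sequences, was not called (log2 0.48, SE 0.205, adjusted p = 0.131, limma). The miR-15b forms were kept in 2 and 3 of the 6 fits with a library left out and miR-16 in 2, each lost without P. fulvidraco libraries 2 and 3 among others (adjusted p up to 0.137).

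The miR-29 and miR-30 families, linked in mammals to collagen genes and to hepatic metabolism, were lower in every tested member, with 1 call each. Over all 278 sequences, 6.47% were called lower. The 6 miR-29 sequences ran from −1.21 to −0.07 with a median of −0.61, and the 7 miR-30 sequences from −0.46 to −0.08 with a median of −0.28. hsa-miR-29b-2-5p_R+1_1ss18CT stood at 25.2, 27.6 and 32.4 in the hybrid and 51.1, 51.4 and 63.7 in P. fulvidraco, with no overlap (log2 −0.94, SE 0.20, adjusted p = 0.00961, limma). The most abundant, fru-miR-29a, stood at 2341, 1938 and 2448 against 5092, 3295 and 2823, where P. fulvidraco library 1 was far above the other libraries of its line (log2 −0.70, SE 0.22, adjusted p = 0.0549). ssa-miR-30e-5p stood at 18802, 16002 and 15972 against 24027, 22733 and 23068, also without overlap (log2 −0.46, SE 0.12, adjusted p = 0.0194). Leaving out P. fulvidraco library 3 ended the miR-29 call (adjusted p = 0.0535). The miR-30 call was lost in 5 of the 6 fits with a library left out (adjusted p up to 0.0772).

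The hepatocyte list, which includes miR-122, did not move one way. Of its 13 tested sequences 7 were higher and 6 lower, with a median log2 difference of 0.08, and 2 were called, both lower, beside 6.47% called lower over all 278. Its summed level overlapped between the lines. One of its families is miR-101, which was lower on its 5p arm. aca-miR-101-2-5p_R+2_1ss3GA stood at 1466, 1065 and 1282 in the hybrid and at 1588, 2082 and 2207 in P. fulvidraco (log2 −0.62, SE 0.18, adjusted p = 0.0342, limma). The lines did not overlap, and hybrid library 1 came near P. fulvidraco library 1. The 3p arm, aca-miR-101-3p_R+2, was not called (log2 −0.39, SE 0.15, adjusted p = 0.106). The 5p call was kept in 2 of the 6 fits with a library left out, and was lost without P. fulvidraco library 2 or 3 or hybrid library 2 or 3 (adjusted p up to 0.137).

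The largest change of a miRNA with a known name was that of dre-miR-204-5p, which lies in a TRPM gene in mammals and is known from eye and kidney epithelia. It stood at 317, 292 and 245 in the hybrid and at 18.6, 34.6 and 28.6 in P. fulvidraco, and no library came near the other line. The log2 difference was 3.37 (SE 0.25, adjusted p = 7.54e-06, limma), kept with each library left out. The P. vachelli mean was 174, below the hybrid. The sequence stands on 2 entries.

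Single members of other families rose as well. dre-miR-34a, which p53 induces in mammals, stood at 439, 465 and 555 in the hybrid and 191, 237 and 229 in P. fulvidraco (log2 1.14, SE 0.18, adjusted p = 0.00277, limma). ssa-miR-199a-5p_1ss11AG stood at 404, 499 and 507 against 256, 191.7 and 245 (log2 1.03, SE 0.17, adjusted p = 0.00286). Both were without overlap and were called with each library left out. The abundant miR-199 form, dre-miR-199-5p, which differs from ssa-miR-199a-5p_1ss11AG by G11A, ran from 122000 to 163971 in the hybrid and from 112751 to 136011 in P. fulvidraco and was not called (log2 0.25, SE 0.13, adjusted p = 0.22). ccr-miR-218a_R+1 stood at 278, 319 and 316 against 154, 185 and 175 (log2 0.83, SE 0.17, adjusted p = 0.009), and aca-miR-184-3p at 42.6, 44.4 and 63.6 against 22.3, 15.8 and 23.1 (log2 1.25, SE 0.24, adjusted p = 0.00721). These also did not overlap between the lines. dre-miR-193b-3p rose by 1.14 (SE 0.32, adjusted p = 0.0332) with hybrid library 3 at 385 and the other 2 at 150 and 170, against 86.5, 94.9 and 110, and was lost without any 1 of the P. fulvidraco libraries (adjusted p up to 0.0929).

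On the stress list (miR-21, miR-31, miR-34 and miR-210), 3 of 8 sequences were called higher, the 2 arms of miR-21 and dre-miR-34a, and 1 lower, beside 12.9% and 6.47% over all 278. The last was ola-miR-210-5p_R+2_1ss20TC, of a miRNA that low oxygen induces in vertebrate cells, at 3596, 3332 and 3103 in the hybrid and 4730, 4103 and 4981 in P. fulvidraco (log2 −0.46, SE 0.11, adjusted p = 0.0175, limma). Its lines did not overlap. The 3p sequence ola-miR-210-3p_L-1R+5 was at −0.13 (SE 0.14, adjusted p = 0.569), and the 5p call was lost in 3 of the 6 fits with a library left out (adjusted p up to 0.0839).

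Counts for other cell types and clusters are given beside the 19.4% of all 278 sequences that were called. In limma, 0 of 15 endothelial sequences (miR-126, miR-130, miR-221 and miR-222) were called, with 3 at an unadjusted p under 0.05. Likewise 0 of 18 of the miR-17-92 type, 0 of 7 of pancreas and 0 of 3 of the Hox clusters were called, with 1 each at an unadjusted p under 0.05. None of these counts was tested against the overall share, and lists of 7 and 3 are too short to be told apart from it. The lists of 15 and 18 hold related forms and arms of the same families, which are not independent, so their counts are a description too. The list of families linked to lipid metabolism had 25 tested sequences (miR-26, miR-27, miR-29, miR-30, miR-33, miR-103 and miR-223, with none of miR-107). Of these, 1 was called higher and 2 lower, beside 12.9% and 6.47% over all 278, with 18 of 25 below 0 and a median of −0.15. The called members of that list are the miR-26, miR-29 and miR-30 sequences given above. Of the 15 sequences of smooth muscle and fibroblasts 2 were called higher, near the 12.9% over all 278, namely ssa-miR-143-5p and ssa-miR-199a-5p_1ss11AG, with summed levels of 410376 to 457347 in hybrid libraries against 406919 to 483825 in P. fulvidraco. The smooth muscle ranges overlapped between the lines. Of the 6 epithelial ones, 1 was called higher, beside 12.9% over all 278. It was ssa-miR-205b-5p, at 756, 1307 and 1206 in the hybrid against 607, 593 and 602 (log2 0.82, SE 0.19, adjusted p = 0.0136, limma). Hybrid library 1 was the nearest to P. fulvidraco, and the call was lost without hybrid library 2 or P. fulvidraco library 3 (adjusted p up to 0.0566). Of the 6 muscle sequences, 1 was called higher, beside the same 12.9%. It was aca-miR-499-5p_R-1, at 10, 8.21 and 7.71 in the hybrid against 1.86, 2.31 and 3.69 (log2 1.44, adjusted p = 0.00953, limma). The P. fulvidraco values were close to the floor and all under the minimum level, and hybrid libraries 2 and 3 were under that level too. The sequence reached it through P. vachelli, at 35.3, 36.5 and 50.6. With a pseudocount of 10 the log2 difference shrank to 0.56 (adjusted p = 0.0464, limma). In the same list 5 of the 6 sequences were higher, beside 154 of all 278, with a median log2 difference of 0.36. The 1 that was lower was aca-miR-1a-3p, at −0.09 (SE 0.28, adjusted p = 0.848, limma).

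The largest fall was in a scarce miRNA. ccr-miR-459-5p_L+2R-2, a fish miRNA, stood at 43.5, 8.87 and 13.9 in the hybrid and at 95.8, 124 and 61.0 in P. fulvidraco (log2 −2.28, SE 0.50, adjusted p = 0.0105, limma). Hybrid library 1 was well above the other hybrid libraries and still below every P. fulvidraco library, and without it the log2 difference was −2.90. ccr-miR-187 stood at 8.71, 5.91 and 8.67 against 17.2, 30.6 and 33.3 (log2 −1.64, SE 0.37, adjusted p = 0.0115), without overlap. It passed the minimum level only through P. fulvidraco, and the call was lost without P. fulvidraco library 2 or 3 (adjusted p up to 0.0639). The P. vachelli means were 12.9 and 6.46.

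In 2 places the called sequence was complementary to a miRNA of another name. In human, the hairpin of miR-3120 lies on the opposite strand of that of miR-214, and the tested sequences here were complementary over 21 bases.
hsa-miR-3120-3p_R+2: cACAGCAAgtgtagacaggcagt
aca-miR-214-5p: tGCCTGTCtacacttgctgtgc
hsa-miR-3120-3p_R+2 stood at 73.5, 68.0 and 57.2 in the hybrid and 154, 127 and 152 in P. fulvidraco, with no overlap (log2 −1.12, SE 0.20, adjusted p = 0.00454, limma). It was called with each library left out, and its P. vachelli mean, 24.7, was lower still. aca-miR-214-5p stood at 71.6, 71.0 and 138 against 82.7, 85.0 and 76.7, with overlap (log2 0.12, SE 0.26, adjusted p = 0.775). hsa-mir-3074-p5, complementary over 18 bases to ipu-miR-24_1ss23GT, was higher at 42.6, 33.5 and 34.7 against 23.2, 17.8 and 21.2, without overlap (log2 0.80, SE 0.23, adjusted p = 0.0359), while ipu-miR-24_1ss23GT was at −0.13 (adjusted p = 0.592). The miR-3074 call was kept in 1 of the 6 fits with a library left out.

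Of the 16 tested candidates without a known name, 9 were called higher and 1 lower, beside 12.9% and 6.47% over all 278. All 9 passed the minimum level only through hybrid or P. vachelli libraries, so this balance is a description of what was tested. PC-5p-555_7718 stood at 1167, 1419 and 1278 in the hybrid. In P. fulvidraco it stood at 1.86, 1.98 and 0.92, together about 5 reads, which gives a ratio of 812 with a 95% counting interval of 350 to 2520. The P. vachelli libraries stood at 2324, 3195 and 3229, and the hybrid mean was 44.2% of theirs, without scaling to equal totals. PC-3p-56651_29, too scarce to be tested, is complementary to it over 14 bases. It stood at 3.87, 5.91 and 9.25 in the hybrid and 5.37, 8.08 and 14.2 in P. vachelli, and at 0 in all 3 P. fulvidraco libraries. Counting intervals and floors cover counting error only, since reads copied by PCR and not marked per molecule are not independent.

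A further pair of candidates was at 0 in every P. fulvidraco library and well above the floor in the hybrid. PC-5p-3257_591 stood at 99.6, 69.0 and 64.8 in the hybrid, at least 27.4-fold higher than 3 reads per P. fulvidraco library, and at 272, 296 and 237 in P. vachelli. PC-5p-17897_142 stood at 27.1, 38.4 and 34.7, at least 11.8-fold higher, and at 64.5, 88.0 and 58.1 in P. vachelli. The hybrid mean was 29% and 47.6% of the P. vachelli mean, again without scaling to equal totals.

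PC-3p-27330_89 differs from PC-3p-23565_106 by G10T and shares its seed. PC-3p-23565_106 stood at 2.42, 27.6 and 20.2 in the hybrid, at 31.2, 52.5 and 30.3 in P. vachelli and at 0 in P. fulvidraco, so 1 hybrid library lay under the floor. PC-3p-27330_89 stood at 21.3, 44.9 and 15.03, at 36.5, 75.4 and 26.1, and at 4.65, 3.46 and 3.69. Both are among the 9 whose direction the minimum level favoured. The candidate that was called lower, PC-5p-30865_77, stood at 10.6, 10.8 and 15.03 in the hybrid, at 28.8, 27.7 and 33.3 in P. fulvidraco and at 0 in P. vachelli (log2 −1.24, SE 0.30, adjusted p = 0.0165), a call kept in 2 of the 6 fits with a library left out.

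Over all 728 sequences, 8 were at 3 reads or more in every hybrid library and under 3 in every P. fulvidraco library, 7 of them without a known name. All 8 were also at 3 reads or more in every P. vachelli library. The choice of these 8 fixes their direction, and they are given as a description. Read from the parents, 17 sequences were at or above the floor in all P. vachelli and under it in all P. fulvidraco libraries. Of these 17, 8 were at or above it in every hybrid library while 4 were under it in every one. In the opposite case, 13 sequences were at or above the floor in P. fulvidraco and under it in P. vachelli. Of these 13, 5 were at or above it in every hybrid library while 2 were under it in every one.

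**Figure D5:**
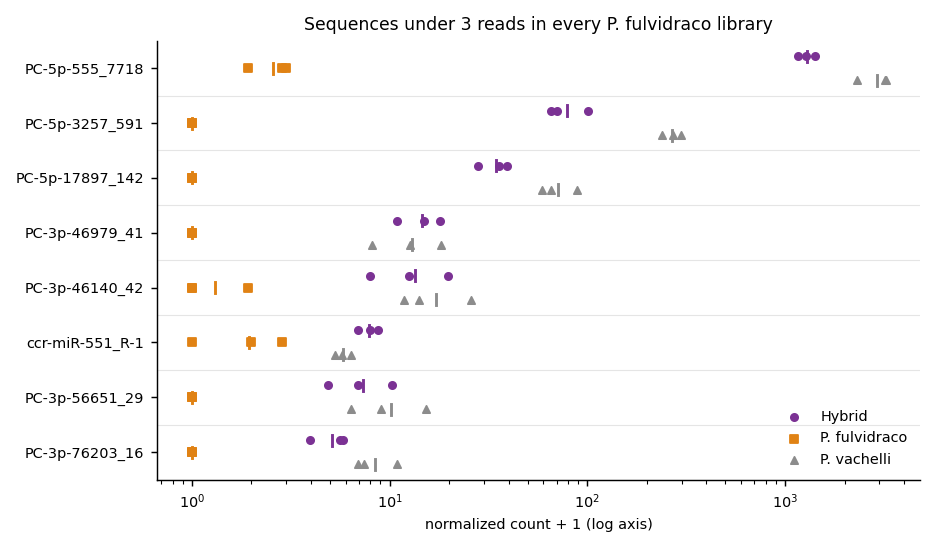
Rows are the 8 sequences at 3 reads or more in every hybrid library and under 3 in every P. fulvidraco library, points are normalized counts plus 1 per library on a log axis, and ticks are group means. The hybrid (purple) lies below P. vachelli (grey) for PC-5p-555_7718, PC-5p-3257_591 and PC-5p-17897_142, and P. fulvidraco (orange) lies at or near 1, which is a value of 0.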

How the data were processed

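Total RNA of juvenile liver was made into TruSeq small RNA libraries, sequenced on an Illumina HiSeq, and filtered with ACGT101-miR, per the labels' protocols. The deposited table gives a signal per mature miRNA and library, named normalized counts in its header. No source used here gives the formula, the miRNA reference or the build. Of 888 entries, 728 sequences are distinct, and the first entry of each was used. Within 0.1 read, 88.1% to 93.9% of low values in the 6 libraries were whole multiples of the value of 1 read, among sequences on 1 entry. The others were not, and the tests took log2 values without a count model. Reads, floors and counting intervals are estimates from the value of 1 read.

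All 9 libraries entered limma 3.58.1 (R 4.3.3, variance trend, a mean per group) as log2(value + 1), with two-sided p-values adjusted by Benjamini and Hochberg over 278 sequences, 201 family and arm sums or 58 arm ratios, at 0.05. Arms came from the name (195 sequences), from at least 8 bases shared with a named entry (43), from the opposite arm (17), or were not set (23). Sequences named are those of families with at least 2 calls in 1 direction, of families with a called arm, the largest and most abundant calls, called arm ratios, and list members with small p-values; of their uncalled members the text gives a part, chosen after their values were seen. Candidates beyond 2 per direction, one-sided sequences, complementary pairs and miR-3120, miR-3074, miR-459, miR-187, miR-184 and miR-499 were named after their values were seen. Members and lists were chosen with earlier results of these data known. One result is not reported here. The method was tested on simulated data. Python 3.11.15, numpy 2.4.6, pandas 2.3.3, scipy 1.17.1 and matplotlib 3.10.9 were used.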

Additional observations from a re-analysis of the deposited data

Results flagged for a closer look

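Below the level tested, 3 sequences were at 3 reads or more in every hybrid library while every P. fulvidraco library stood under 3 reads. ccr-miR-551_R-1 had a hybrid mean of 6.86, with 0, 0.99 and 1.85 in P. fulvidraco. PC-3p-56651_29, the partner of PC-5p-555_7718 by complementarity, had a hybrid mean of 6.34 and PC-3p-76203_16 one of 4.14, with 0 in all 3 P. fulvidraco libraries for both. The P. vachelli means were 4.81, 9.23 and 7.42. These levels are a few reads per library, and no test was run on them.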

How the results depend on the processing

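The 54 calls became 48 to 59 under equal totals, median ratios, a pseudocount of 10, no filter on level, the 6 libraries alone, no variance trend, or summed entries, and no called sequence changed sign under any of them. With 1 library left out they ran from 30 (without P. fulvidraco library 3, which lost 25 of the 54) to 59. Calls of at least 2-fold ran from 18 with a pseudocount of 10 to 35 without a filter, family and arm sums from 32 to 48, and called arm ratios from 2 to 3. In all, 27 sequences were called under every alternative. Same-numbered libraries of the lines deviated from their group means with r of −0.15, 0.162 and −0.077, and differently numbered ones with r from −0.324 to 0.259. With 3 libraries per line these values cannot show whether replicate numbers pair the lines. With the replicate number as a block, 42 sequences were called, 29 higher and 13 lower, 41 of them among the 54. The miR-143 arm ratio was lost under the block, without the trend and without the filter (adjusted p = 0.1, 0.107 and 0.0551, limma). Where reads are few, as for dre-miR-202-5p_R+1 and PC-3p-48402_39, calls were lost with a pseudocount of 10, and fitted changes shrank, to 6.80 for PC-5p-555_7718 and −1.03 for ccr-miR-187. Depth sets the floor at 3 reads, so a value of 0 does not show absence.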

Other observations

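In the opposite direction, 2 sequences were at 3 reads or more in every P. fulvidraco library and under 3 in every hybrid and every P. vachelli library, both too scarce to be tested. They were chosen by this gap, which fixes its direction, so the ratios and intervals are a description. PC-3p-79316_15 stood at 4.18, 10.4 and 10.6 in P. fulvidraco and at 0.48, 2.46 and 0.58 in the hybrid, a ratio of 7.15 with a 95% counting interval of 2.77 to 39.2. gga-miR-187-5p_L+1_2ss6AG23AT, the 5p partner of ccr-miR-187, stood at 3.72, 3.95 and 6.93 against 1.93, 1.48 and 0, a ratio of 4.28 with an interval of 1.37 to 12.9. The 3p sequence ccr-miR-187 was lower in the hybrid too, and the pair is complementary over 12 bases.

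PC-5p-5068_398, which stands on 2 entries, was called higher although the hybrid libraries parted: they stood at 58.5, 62.1 and 2.31, against 0 in all 3 P. fulvidraco libraries and 28.5, 26.04 and 48.6 in P. vachelli. Another candidate, PC-3p-153263_4, is complementary to it over 20 bases.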
